A study of Mus musculus with 14 samples.

Results

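The nuclear genes of oxidative phosphorylation were followed in RNA of mouse embryoid bodies (EBs), aggregates in which embryonic stem cells (ESCs) differentiate. They were taken by name from the authors' table of CPM, the reads of a gene scaled to a common library total: names that begin with Nduf followed by a, b, c, s or v, the 4 succinate dehydrogenase genes, and names that begin with Uqcr, Cox4 to Cox8 or Atp5, without the Ndufaf assembly factors. This gave 83 of the 16181 genes in that table. Sorted by the start of the name alone, they were 38 of complex I, 4 of complex II, 8 of complex III, 16 of complex IV and 17 of complex V. A name need not match the complex that holds the protein, so counts and sums by complex are by name. The 14 libraries came from a control line with an shRNA against LacZ (shLacZ) and a line with an shRNA against the exonuclease DIS3L2 (shDIS3L2). Both were made in ESCs that carry an Osr1-GFP reporter. Each line gave 1 library at d0 (undifferentiated ESCs in LIF and 2i) and 1 at each of d2, d4, d6, d8, d10 and d12 of EB culture in serum without LIF or 2i. The labels name no second culture of either line on any day.

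Complexes I to IV of the inner mitochondrial membrane pass electrons from NADH and succinate to oxygen, and complexes I, III and IV pump protons as they do so. Complex V, the ATP synthase, uses the proton gradient to make ATP. Most subunits are encoded in the nucleus and imported, and a small core of complexes I, III, IV and V is encoded in mitochondrial DNA. ESCs are known for a strong use of glycolysis, and the balance with respiration shifts as they differentiate. Many nuclear subunit promoters are known to hold sites for the factors NRF1, GABPA of the ETS family, and YY1.

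RefSeq promoters (build GRCm38.p6) were matched by symbol for 66 of the 83 genes. The window of 250 bases before and 50 after each start was searched on both strands for 3 short cores. The NRF1 core CGCATGC was found in 10 of the 66 (15.2%) and in 3.64% of 27025 promoters. The ETS core CCGGAAG was found in 15 (22.7%) and in 9.12% of all promoters. The YY1 core AAGATGG was found in 9 (13.6%) and in 6.48% of all promoters. At least 1 of the 3 was found in 29 members (43.9%) and in 17.7% of all promoters. The promoters of 5 members are shown, each as the 150 bases before the more upstream of its RefSeq and GENCODE starts, 5′ to 3′ on the gene's strand, with core matches in capitals. Cox6a1 was the member called between the lines early in the course, Uqcr11 was among those whose line difference changed, and Sdhd belongs to complex II, whose sum moved least. Cox5a was lower and Ndufv3 higher in shDIS3L2 late in the course.
Cox6a1, chr5:115348982-115349131, minus strand: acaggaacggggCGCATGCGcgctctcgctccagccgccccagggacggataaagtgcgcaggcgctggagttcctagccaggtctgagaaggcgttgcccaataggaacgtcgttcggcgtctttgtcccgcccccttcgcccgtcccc
Uqcr11, chr10:80406831-80406980, minus strand: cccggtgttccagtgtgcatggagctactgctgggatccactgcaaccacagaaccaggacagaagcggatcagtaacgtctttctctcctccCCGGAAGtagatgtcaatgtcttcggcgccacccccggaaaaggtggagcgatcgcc
Sdhd, chr9:50603850-50603999, minus strand: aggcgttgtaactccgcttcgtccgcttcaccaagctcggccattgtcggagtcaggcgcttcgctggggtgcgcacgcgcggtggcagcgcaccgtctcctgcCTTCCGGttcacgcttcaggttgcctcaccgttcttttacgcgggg
Cox5a, chr9:57521082-57521231, plus strand: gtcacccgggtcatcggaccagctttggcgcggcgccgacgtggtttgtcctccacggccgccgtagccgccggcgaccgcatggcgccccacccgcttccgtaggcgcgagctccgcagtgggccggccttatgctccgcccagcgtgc
Ndufv3, chr17:31519965-31520114, plus strand: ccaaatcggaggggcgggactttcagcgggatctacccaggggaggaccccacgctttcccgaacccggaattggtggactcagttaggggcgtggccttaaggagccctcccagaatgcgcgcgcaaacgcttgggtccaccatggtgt
In these windows Cox6a1 holds the NRF1 core on both strands, overlapping by all but 1 base at each end, and Uqcr11 and Sdhd hold the ETS core. The windows of Cox5a and Ndufv3 hold none of the 3 letter strings. A match is a description of the sequence and not of binding.

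Each library held 7178712 to 39888099 reads on genes. At d0 Dis3l2 stood at 36.7 CPM in the control line and 5.23 CPM in the knockdown line, 14.2% of the control (95% Clopper-Pearson interval 11.5 to 17.4), and at 28.5%, 32.2% and 55.0% at d2, d4 and d6. At d8 and d12 it stood at 96.9% and 75.4% of the control, and at d10 at 20.4 CPM against 21.5. The libraries of d0 stood apart from the other 12: their scaling factors by the trimmed mean of M values (TMM) were 0.756 and 0.630, against 1.01 to 1.12 later, and long transcripts were low in them. For the members, the change from d0 to d2 is therefore also given against that trend. The sums and the other gene lists were not corrected for it, and their values at d0 carry it. Days of 1 series and the 2 lines stand in for replicates here, so each p measures the spread between these libraries and not between cultures. In bulk RNA, fewer cells of a type and less RNA per cell cannot be told apart.

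The summed level of the 83 genes was more than 2 times as high at d0 as at d2 in both lines. Its later changes were smaller. At d0 it was 26916 CPM in the control and 30501 CPM in the knockdown, and at d2 it was 10471 and 11962 CPM. In the 12 EB libraries the sum lay between 8521 and 11962 CPM. At d12 it was 0.819 times its d2 level in shLacZ and 0.712 times in shDIS3L2. The d0 level was 2.57 times that of d2 in shLacZ and 2.55 times in shDIS3L2. The members made up 2.69% and 3.05% of the reads on listed genes at d0 and 0.852% to 1.20% later.

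The ratio differed between the complexes. At d0 complex IV, cytochrome c oxidase, stood at 6002 CPM in the control and 7119.8 in the knockdown, and at d2 at 1457 and 1734, so that its d0 level was 4.12 and 4.11 times that of d2. Complex I, the NADH dehydrogenase, was 3.18 and 3.24 times higher at d0 than at d2, and complex III, the cytochrome bc1 complex, 2.99 and 3.02 times. Complex V was 1.85 and 1.76 times higher at d0, and its d12 level was 0.705 and 0.627 times that of d2. Complex II, succinate dehydrogenase, which is also an enzyme of the citric acid cycle, went from 934 to 589 CPM in shLacZ and from 707 to 645 CPM in shDIS3L2, 1.58 and 1.10 times. It is the complex with no subunit encoded in mitochondrial DNA. Sums of CPM weigh each gene by its level and length, so they describe the libraries and were not tested.

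**Figure D1:**
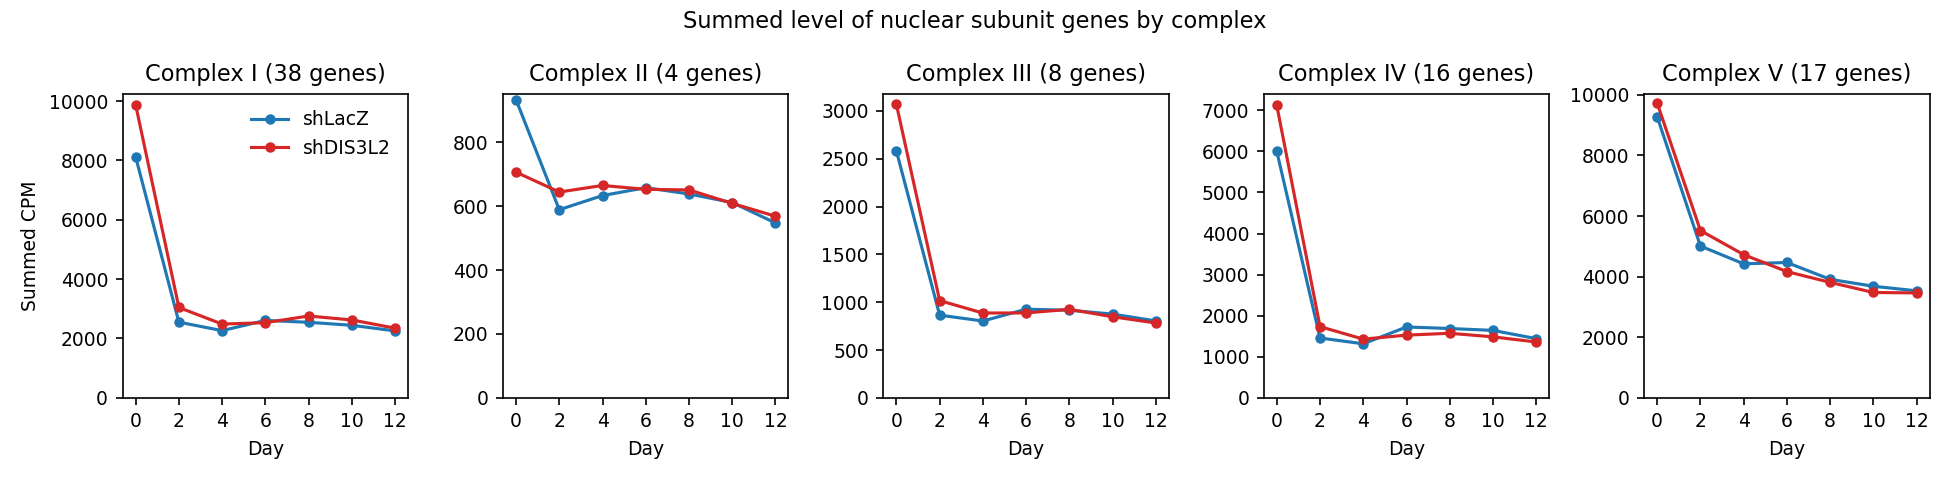
Summed CPM (y axis, from 0) of the nuclear subunit genes of each complex by day (x axis), with 1 point per library, shLacZ in blue and shDIS3L2 in red. Complexes I, III and IV drop about 3- to 4-fold from d0 to d2 in both lines, complex V drops less, and complex II is nearly level in shDIS3L2.

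Gene by gene, 78 of the 83 fell from d0 to d2 and 1 rose (edgeR quasi-likelihood test, Benjamini-Hochberg adjusted p under 0.05 over 18939 genes). Over all genes tested, 34.1% were called lower and 37.5% higher. The median log2 change was −2.29 over the members and 0.11 over all genes. The members called lower were 37 of 38 in complex I, 3 of 4 in complex II, 7 of 8 in complex III, 15 of 16 in complex IV and 16 of 17 in complex V. These calls take both lines together on TMM-scaled libraries. The CPM of Atp5a1, Atp5b and Atp5f1, called lower, fell in shLacZ but not in shDIS3L2. There it went from 1255 to 1452, from 2193 to 2215 and from 284 to 307. For 72 of the 83 genes both d0 libraries lay above all 12 EB libraries, which held for 18.4% of 15552 listed genes with at least 1 CPM in a library. The converse, both d0 libraries below all later ones, held for 1 member and for 35.9% of those genes.

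The members are short transcripts, and short transcripts as a whole were lower at d2 than at d0. The median annotated transcript of a member was 683 bases long, against 2158 bases for listed genes. Lengths are medians over all annotated protein-coding transcripts of a gene, and partial models among them can make a length shorter than the main mRNA. Among other genes of up to 600 bases the median log2 change was −0.97, against −2.57 for the 30 members of that length. From 600 to 1000 bases it was −0.72 for other genes and −2.37 for 34 members, and from 1000 to 1500 bases −0.58 and −1.43 for 13 members. Other genes above 4000 bases had a median change of 1.07. The members therefore lay below other genes of like length in each of these 3 bins. With an offset that removes the trend in transcript length and GC content, 70 members were called lower and 1 higher, with a median of −1.41. With library totals in place of TMM factors, 72 were called lower and 2 higher, and over all genes the split moved from 7107 higher and 6450 lower to 8815 and 4775. That change of scale shifted the median of all genes from 0.11 to 0.56 and that of the members from −2.29 to −1.83. How far the trend reflects the libraries of d0 was not tested.

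**Figure D2:**
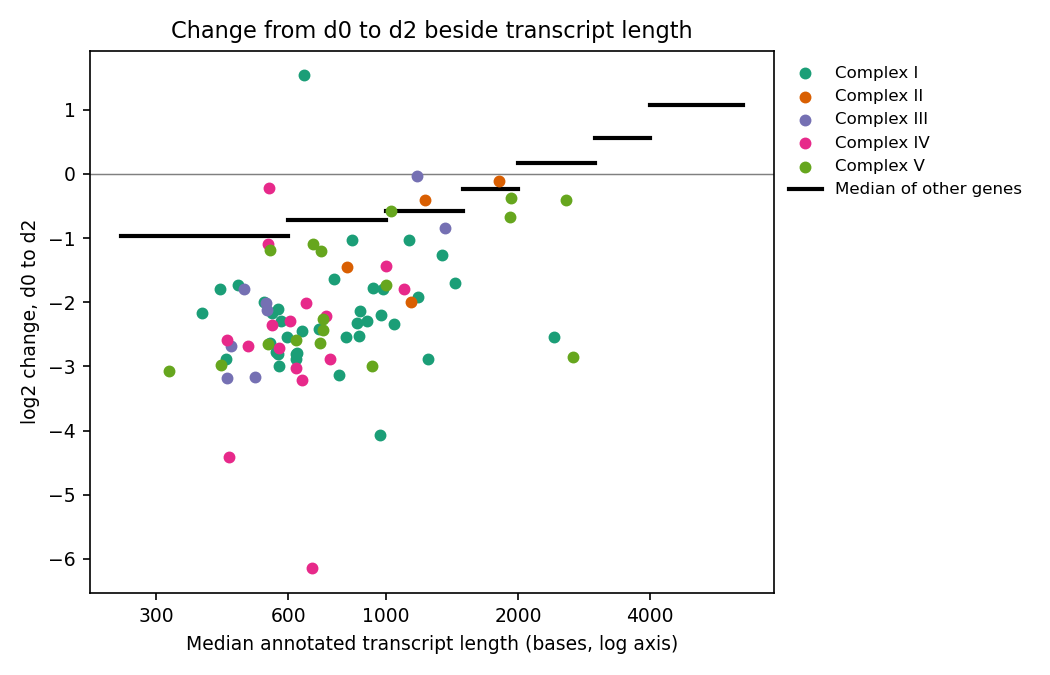
Change from d0 to d2 (y axis, log2, edgeR estimate over both lines) of each member, coloured by complex, against the median length of its annotated transcripts (x axis, bases, log axis), with black bars for the median of other genes in 7 length bins. Most members lie below the bar of their length, and Ndufs1 stands alone above 1.

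The gene that rose was Ndufs1, the largest subunit of complex I, on chromosome 1 (63143596 to 63176833). In shLacZ it stood at 67.7 CPM at d0 and 185 at d2 and then between 124 and 158. In shDIS3L2 it stood at 37.0 CPM at d0 and 221 at d2 and then between 129.8 and 157. Both d0 values lay below all 12 EB values, and the rise to d2 was 1.54 ± 0.19 on the log2 scale (SE). Its rise over the whole course, 0.89 ± 0.19, turned to −0.11 with an offset for gene length and to 1.65 with the offset for transcript length and GC content. Its gene length in the count table is 8086 bases, and the median over its annotated protein-coding transcripts is 651 bases. Partial transcript models were not left out of that median, so it can be shorter than the main mRNA. The value of 1.65 rests on that length. From d2 to d12 it fell by 0.65 ± 0.18. Its exons overlap those of Eef1b2, and the strand setting of the counting is not given in the sources used here.

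The 4 members that did not pass the test from d0 to d2 were Sdha, Uqcrc2, Cox7b2 and Atp5sl. Sdha, the flavoprotein of succinate dehydrogenase, had 235 CPM in shLacZ and 191 in shDIS3L2 at d0 and 272 and 268 at d2. Its log2 change was −0.11 ± 0.10 (SE, adjusted p = 0.334 by edgeR). Uqcrc2, a core protein of complex III, had 174 and 106 CPM at d0 and 163 and 208 at d2, and its log2 change was −0.03 ± 0.18. The CPM of Uqcrc2 thus moved down in the control and up in the knockdown, and that of Sdha was higher at d2 in both lines, while the fitted change, on TMM-scaled libraries, was near 0. Cox7b2 had a log2 change of −0.22 ± 0.37 and Atp5sl, grouped with complex V by its name alone, −0.37 ± 0.19.

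The other subunits of complex II split. Sdhb, the iron-sulfur subunit, fell by 2.00 ± 0.14 on the log2 scale, from 304 and 231 CPM to 81.2 and 102. Sdhc, a membrane anchor, fell by 1.45 ± 0.14. Sdhd, the other anchor, had 189 CPM at d0 and 146 at d2 in shLacZ, but 132 and 186 in shDIS3L2, with a fitted log2 change of −0.41 ± 0.15 (adjusted p = 0.0306 by edgeR). A lower CPM of Sdhd at d2 was thus seen in 1 line and not in the other.

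From d2 on the members changed less. From d2 to d4, 15 fell and 1 rose, beside 13.3% of all genes called lower and 14.8% higher. The gene that rose was Atp5g3, at 198 and 197 CPM at d2 and 245 and 288 CPM at d4. From d4 to d6, 14 rose and 0 fell, beside 13.6% called higher and 12.5% lower. From d6 to d12, 14 fell and 0 rose, beside 7.5% called lower and 12.2% higher. Without d10 and without d8, 7 members each were called from d4 to d6, and without d0 the calls from d6 to d12 were 25. Among the 14 that rose to d6 were Cox6b1 (log2 change 0.57), Cox7a2l (0.54), Ndufb11 (0.47) and Uqcrh (0.40). Cox6b1 went from 151 to 215 CPM in shLacZ and from 172 to 245 in shDIS3L2.

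Over the whole course from d0 to d12, 81 members were lower, 1 was higher, and Uqcrc2 did not pass, beside 33.4% of all genes called lower and 43.1% higher. With d2 as the start in the same fit, a choice made after seeing the data, 29 members were lower and 3 higher, beside 27.2% and 30.4% of all genes, and the median log2 change was −0.21 against −0.01. As shares of the members these were 34.9% lower and 3.61% higher. Among genes shorter than 1500 bases the median was −0.49. Members of complex V made up 8 of the 29. Atp5b, the catalytic beta subunit and the member with the highest mean level per kilobase (393 CPM per kb), fell from 2065 CPM at d2 to 1314 at d12 in shLacZ and from 2215 to 1142 in shDIS3L2. Its log2 change from d2 to d12 was −0.76 ± 0.12. Atp5a1, the alpha subunit, had −0.64 ± 0.10.

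Of the 5 largest falls over the whole course, those of Cox7b2, Cox6a2, Ndufa4l2 and Cox7a1 were in isoforms or paralogs with restricted expression, and the other was in Ndufb4. Cox7b2, known from testis, had 3.02 and 3.98 CPM at d0, 3.46 and 4.82 CPM at d2, and at most 0.356 CPM in the 10 libraries from d4. Its fall thus came after d2, with a log2 change of −3.72 ± 0.54 from d2 to d4. Ndufa4l2, a paralog of Ndufa4 known as a HIF1 target, stood at 21.7 and 16.6 CPM at d0, 6.25 and 9.45 at d2 and between 0.436 and 3.16 from d4. Cox7a1, the heart and muscle isoform of subunit 7a, stood at 44.9 and 62.7 CPM at d0 and between 1.94 and 5.80 later. Cox6a2, the heart and muscle isoform of subunit 6a, had 73 and 117 reads at d0 and 0 to 16 in the EB libraries. Ndufb4, an accessory subunit of complex I, stood at 60.9 and 72.0 CPM at d0 and between 4.52 and 6.74 later.

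The isoform that is widely expressed carried the level in most isoform sets. Cox4i1 had a mean of 380.3 CPM per kb against 1.46 for Cox4i2, the isoform known to rise in low oxygen. Cox4i2 rose from d4 to d6 and fell after it, with 6 and 7 reads at d4, 27 in each line at d6 and at most 8 from d8, so its change rests on few reads. Cox6b1 had 379 CPM per kb and the testis isoform Cox6b2 41.7. Cox6b2 fell from 183 and 187 CPM at d0 to 42.4 and 42.3 at d2 and to between 12.8 and 26.3 from d4. Cox7b had 139.6 CPM per kb against 2.26 for Cox7b2. Among the 3 genes for the c subunit of the ATP synthase, which encode the same mature protein, Atp5g3 had 138 CPM per kb, Atp5g1 11.3 and Atp5g2 1.85. Reads shared with paralogs and processed pseudogenes can lower such a level, since the treatment of multi-mapping reads is not given in the sources used here.

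Between the lines the members stood somewhat higher in shDIS3L2 up to d4, and from d6 their median lay near that of all genes. The median log2 ratio of shDIS3L2 to shLacZ CPM was 0.20 at d0, 0.29 at d2 and 0.16 at d4, where the median of all genes compared was −0.26, −0.05 and −0.01. At d6, d8, d10 and d12 it was −0.03, 0.06, 0.03 and 0.05, beside −0.01, 0.03, 0.01 and 0.05 for all genes. The members stood 0.46, 0.33 and 0.17 above the median of all genes at d0, d2 and d4. With the trend in gene length removed these 3 differences were 0.26, 0.15 and 0.12. Of the members compared, 59 of 83, 71 of 81 and 67 of 80 were higher in shDIS3L2 on these days. Complex II stood apart. At d0 all 4 of its genes were lower in shDIS3L2, with a median log2 ratio of −0.42. At d2 and at d4, 2 were higher and 2 lower.

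**Figure D3:**
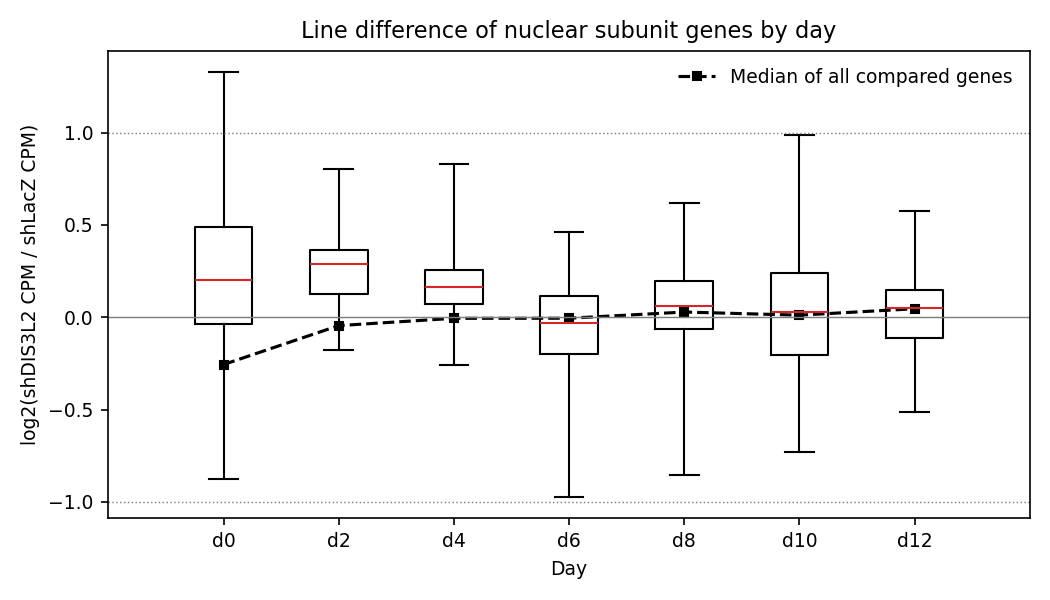
log2 ratio of shDIS3L2 to shLacZ CPM (y axis) of the members with at least 1 CPM in a library of the day (x axis). Boxes span the quartiles with the median in red, whiskers the lowest and highest member, and black squares give the median of all compared genes. From d2 no member passes the dotted lines at a 2-fold difference.

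A 2-fold difference between the lines was rare. At d0, 3 members were at least 2-fold higher in shDIS3L2 and 0 lower, beside 2.01% and 8.89% of 12472 genes. Cox6a1 had 348 CPM in shLacZ and 763 in shDIS3L2, 2.19-fold (95% interval 2.14 to 2.25), Ndufa2 2.27-fold (2.20 to 2.35) and Cox6a2 2.51-fold (1.86 to 3.42). From d2 to d12 no member reached 2-fold either way on any of the 6 days, among the 79 to 81 with at least 1 CPM. Cox6a2, at most 0.859 CPM on these days, was not among them. Of all genes compared, 0.664% were at least 2-fold higher and 1.33% lower at d2, 1.66% and 5.46% at d4, and 7.1% and 8.71% at d6. At d8 these shares were 11.7% and 8.79%, at d10 14.6% and 8.81%, and at d12 13.3% and 4.45%. These intervals cover counting error only.

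Over d0 to d4, only Cox6a1 passed the test between the lines, and 0 members were lower, beside 0.0211% of all genes called higher and 0.0158% lower. Cox6a1, the widely expressed isoform of subunit 6a, on chromosome 5 (115345642 to 115348981), had 348, 82.5 and 67.5 CPM in shLacZ and 763, 144 and 112 in shDIS3L2 at d0, d2 and d4. The shDIS3L2 value was higher on all 3 days, and the log2 difference was 0.97 ± 0.13 (SE, adjusted p = 0.0493 by edgeR). The call was lost when any day was left out, and DESeq2 called 14 members higher and 0 lower, beside 122 of 18939 genes higher and 61 lower. At an unadjusted p under 0.05, edgeR had 47 members and 2112 of the 18939 genes.

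Over d6 to d12, 6 members were higher and 11 lower in shDIS3L2, beside 13.8% and 18.2% of all genes (7.23% and 13.3% of the members). The median log2 difference was −0.03 over the members and −0.05 over all genes. With library totals in place of TMM factors the members were split 7 higher and 7 lower. Without d10 there were 9 calls and without d8 10, against 17. Complex IV held 5 of the 11 lower members: Cox7a1, Cox4i1, Cox5a, Cox6b2 and Cox8a. Complex III held 3, Uqcrq, Uqcrfs1 and Uqcr10, complex I held Ndufb7 and Ndufs6, and complex V Atp5b.

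Cox4i1, the ubiquitous subunit 4 of cytochrome c oxidase, on chromosome 8 (120668222 to 120674207), has the highest mean level per kilobase in complex IV. In shLacZ it had 343 and 365 CPM at d2 and d4 and 515, 514, 508 and 467 at d6, d8, d10 and d12. In shDIS3L2 it had 316 and 306 CPM at d2 and d4 and 305, 369, 376 and 356 from d6. All 4 late shDIS3L2 values lay below all 4 of shLacZ, with a log2 difference of −0.58 ± 0.10 (adjusted p = 0.0021 by edgeR). Its exons overlap those of Emc8, and it kept its call under all 14 alternatives.

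Cox5a, another nuclear subunit of the oxidase, on chromosome 9 (57521274 to 57532426), had 147, 136, 123 and 95.1 CPM in shLacZ from d6 and 102, 83.8, 78.9 and 85.1 in shDIS3L2. It was lower on each of the 4 days, though the d6 value of shDIS3L2 lay above the d12 value of shLacZ, and the log2 difference was −0.58 ± 0.10. Uqcrq, a small subunit of complex III, on chromosome 11 (53427922 to 53430831), had 64.3, 66.5, 80.6 and 80.8 CPM in shLacZ and 32.8, 56.1, 48.6 and 58.4 in shDIS3L2. Its late values did not overlap between the lines, and its log2 difference was −0.67 ± 0.13 (adjusted p = 0.0034 by edgeR). Ndufb7, an accessory subunit of complex I, had −0.51 ± 0.14 and lost its call without d6 or without d10. Cox7a1 had −0.69 ± 0.17 at levels of 2.15 to 5.80 CPM and lost its call without d8.

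The summed level of complex IV was 0.885, 0.931, 0.904 and 0.943 times that of shLacZ at d6, d8, d10 and d12. Without Cox4i1 the ratios were 1.01, 1.02, 0.979 and 1.03. On these days the sum without Cox4i1 thus differed between the lines by at most a few hundredths. The sum weighs genes by their level. Gene by gene, the median log2 ratio of complex IV was 0.04, −0.20, −0.14 and −0.15 on these days. At d0, d2 and d4 the summed ratio of complex IV was 1.19, 1.19 and 1.09, and without Cox4i1 it was 1.22, 1.27 and 1.18.

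The members called higher in shDIS3L2 over d6 to d12 were Ndufv3, Ndufa5 and Ndufb11 of complex I, Atp5j of complex V, and Cox6a2 and Cox7a2l, the latter grouped with complex IV by its name. Atp5j, the coupling factor 6 of the ATP synthase, on chromosome 16 (84827866 to 84835625), had 82.0, 77.4, 75.9 and 72.5 CPM in shLacZ from d6 and 113, 117, 115 and 100.4 in shDIS3L2. It was higher in shDIS3L2 on all 7 days, 1.26- to 1.63-fold, and its late log2 difference was 0.46 ± 0.09 (adjusted p = 0.0039 by edgeR). Its exons overlap those of Gabpa. Cox7a2l is known for its part in joining complexes III and IV into supercomplexes. From d6 it had 132 to 179 CPM in shLacZ and 179 to 219 in shDIS3L2, with a log2 difference of 0.34 ± 0.07.

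Ndufv3, an accessory subunit of the NADH-binding module, on chromosome 17 (31520115 to 31531326), had 65.3, 75.2, 64.8 and 56.4 CPM in shLacZ from d6 and 72.4, 116, 129 and 84.1 in shDIS3L2. The d10 ratio, 1.99-fold (95% interval 1.80 to 2.19), was the largest from d2 on among members with at least 1 CPM in a library of the day. Its late log2 difference was 0.52 ± 0.12, and without d10 it was 0.38 and no longer passed.

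Cox6a2 had 0 reads in all 6 shLacZ EB libraries. In shDIS3L2 it had 3, 1 and 0 reads at d2, d4 and d6 and 10, 16 and 6 at d8, d10 and d12. Over d6 to d12 the 32 reads of shDIS3L2 correspond to 0.577 CPM, at least 8.33-fold above the 0.0693 CPM that 3 reads would give over the 4 shLacZ libraries. Of 9 cardiomyocyte markers tested, 5 were higher in shDIS3L2 over the same days and 0 lower. Their summed level was 35.7 to 92.2 CPM in shLacZ and 58.6 to 268.5 in shDIS3L2, and Tnnt2, troponin T of the heart, had 2.54, 4.35 and 6.61 CPM in shLacZ and 23.4, 43.4 and 25.1 in shDIS3L2 at d8, d10 and d12. Of 3 skeletal muscle markers tested, 1 was higher. Cox7a1, the other heart and muscle isoform, was lower in shDIS3L2 on these days. The part of muscle cells in these differences was not tested.

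**Figure D4:**
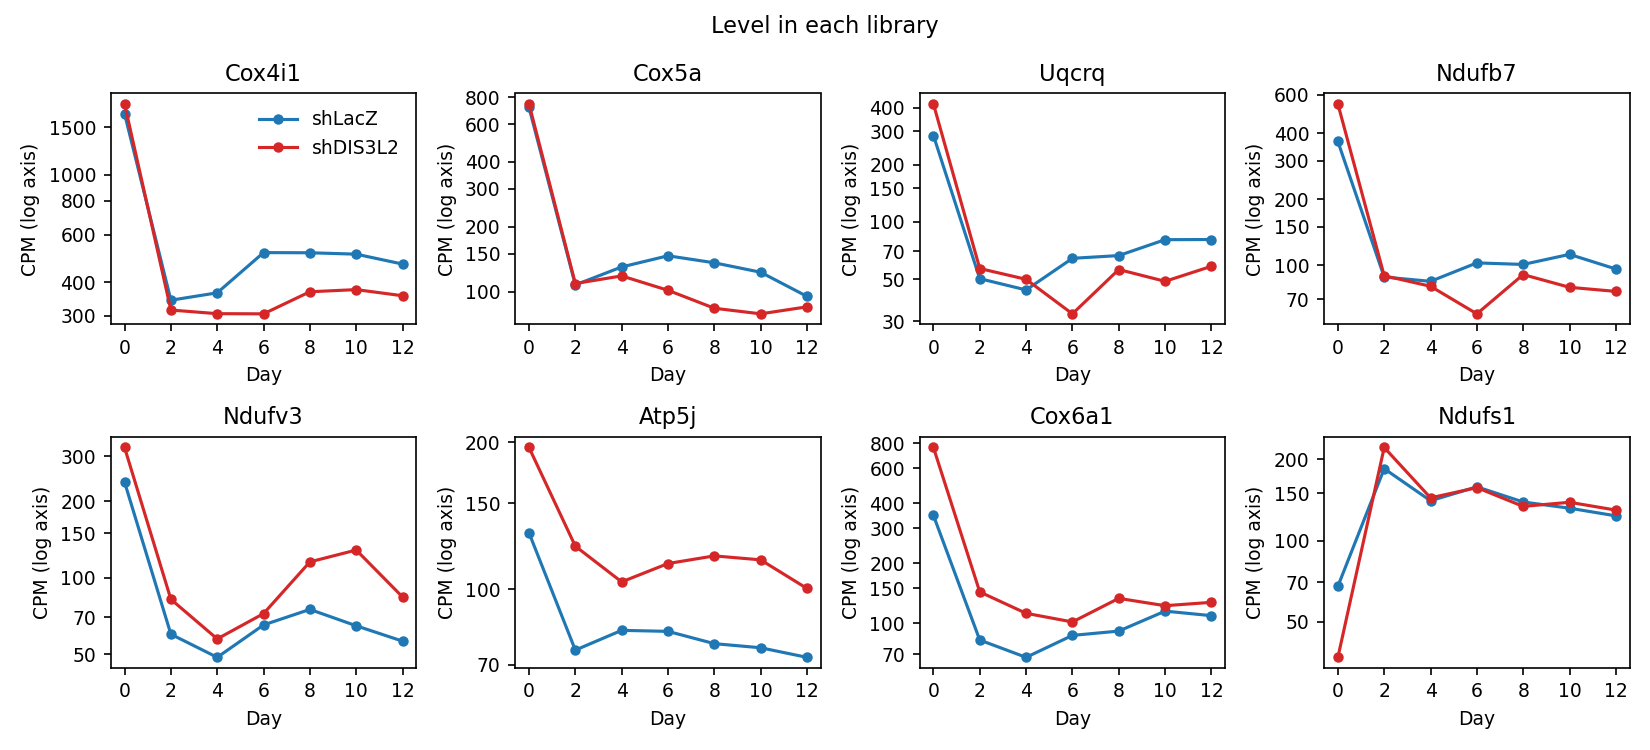
CPM (log axis) of 8 members by day, with 1 point per library, shLacZ in blue and shDIS3L2 in red. Cox4i1, Cox5a, Uqcrq and Ndufb7 lie lower in shDIS3L2 on each day from d6, Cox4i1 from d2, Atp5j is higher in shDIS3L2 on every day, and Ndufs1 is the gene that is lowest at d0.

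The line difference itself changed between d0 to d4 and d6 to d12 for 13 members, all downward, and for 0 upward, beside 5.7% of all genes called downward and 5.13% upward. The median change was −0.33 over the members and −0.05 over all genes, on the log2 scale. By complex these were 7 of complex IV, 3 of complex III, 3 of complex I and 0 of complexes II and V. Uqcrq had a change of −1.06 ± 0.20 (adjusted p = 0.0124 by edgeR), the value that held under all 13 alternatives tried for it. Cox7a1 had −1.30 ± 0.24 and lost its call without d0. Cox4i1 had −0.58 and lost its call under 9 of 13 alternatives.

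The count depended on the days and the scaling. Without d0 there were 4 calls, without d2 3, without d8 4, without d10 2 and without d12 8, against 13. With library totals there were 5 (and 1108 genes upward and 499 downward, against 972 and 1079), with a gene-length offset 4, and with the offset for transcript length and GC content 9.

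**Figure D5:**
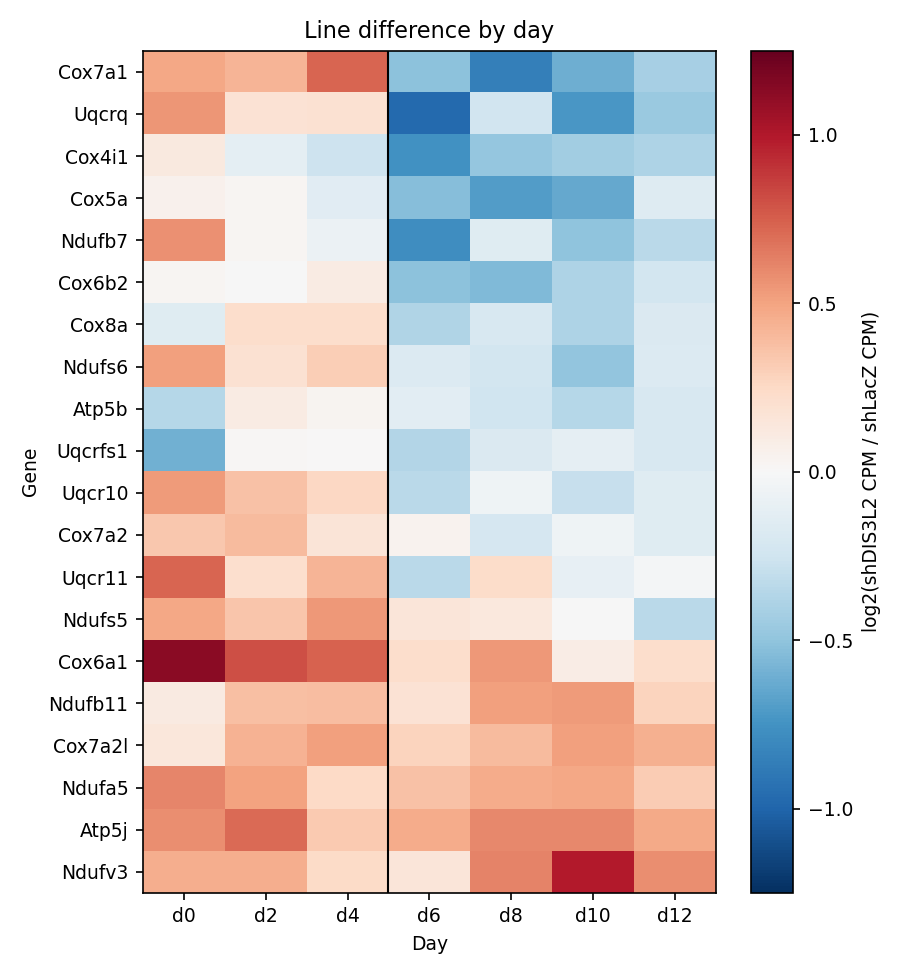
log2 ratio of shDIS3L2 to shLacZ CPM (colour) by day (columns) for the 20 members other than Cox6a2 that passed a test between the lines, ordered by their late difference. The black line parts d0 to d4 from d6 to d12: Cox7a1 and Uqcrq at the top turn from red to blue, Atp5b and Uqcrfs1 are blue at d0 already, and Atp5j and the other rows at the bottom stay red.

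Other genes of the pathway were taken from lists. The shares of all genes called in the same comparisons, given above, were 34.1% lower and 37.5% higher from d0 to d2. They were 27.2% and 30.4% from d2 to d12, 33.4% and 43.1% from d0 to d12, and 7.5% and 12.2% from d6 to d12. Between the lines over d6 to d12 they were 18.2% and 13.8%. Of 77 mitochondrial ribosomal protein genes, 70 fell and 1 rose from d0 to d2, with a median log2 change of −1.58. From d2 to d12, 45 of them fell and 2 rose, with a median of −0.50. Over d6 to d12, 22 were lower in shDIS3L2 and 0 higher, with a median of −0.19. Mrpl52 went from 182 and 284 CPM at d0 to 25.7 and 31.8 at d2.

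Of 45 assembly factors tested, which build the complexes but are not part of them, 35 fell and 2 rose from d0 to d2 (median −1.22). Cox17, a copper chaperone of the oxidase, went from 59.6 and 85.8 CPM to 13.7 and 15.0. Of 8 electron carriers with cytochrome c1, 7 fell and 1 rose (median −1.18). Etfb, a subunit of the electron transfer flavoprotein, went from 138 and 266 CPM to 10.6 and 9.45. Of 13 citric acid cycle genes, 8 fell and 3 rose (median −0.37). Mdh2, malate dehydrogenase, went from 597 and 586 CPM to 388 and 407.

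Of the 8 pathway lists, glycolysis had the median farthest from 0 between the lines late in the course. Of its 18 genes, 13 were lower in shDIS3L2 over d6 to d12 and 1 was higher, with a median log2 difference of −0.54, beside −0.03 for the members. From d0 to d12, 14 fell and 1 rose (median −1.33). Ldhb, a lactate dehydrogenase subunit, went from 623 and 541 CPM at d0 to 80.5 and 94.7 at d12, with a late log2 difference between the lines of −0.50. From d2 to d12, 11 fell and 2 rose (median −0.69). Of 13 HIF1 targets tested, 10 rose and 1 fell from d0 to d12 (median 1.29), but from d2 to d12 4 rose and 2 fell (median 0.09).

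Of 16 regulators of mitochondrial biogenesis, 7 rose and 5 fell from d0 to d2. Over d6 to d12, 3 were lower in shDIS3L2 and 1 was higher, with a median log2 difference of −0.11. The higher one was Ppargc1a, a coactivator known to drive mitochondrial biogenesis, which had 0.282, 0.304 and 0.576 CPM in shLacZ at d8, d10 and d12 and 1.10, 1.65 and 3.44 in shDIS3L2. The shLacZ value at d10 lay below the 3-read floor of that library, 0.405 CPM, so the difference rests on few control reads. Esrrb, a nuclear receptor of the pluripotency network, stood at 489 and 342 CPM at d0 and 20.3 and 23.8 at d2.

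Of the 13 subunits encoded in mitochondrial DNA, 7 rose and 4 fell from d0 to d2, while from d6 to d12 6 fell and 0 rose. Their summed level was 1.23 and 1.01 times that of the 83 nuclear genes at d0 and 4.40 to 6.91 times in the EB libraries.

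Marker lists moved with the course and the lines. Summed pluripotency markers were 1759.1 to 5505.5 CPM at d0 to d4 in shLacZ and 2296 to 4288 in shDIS3L2, and 519 to 725 and 77.1 to 478 CPM from d6. Of 8 mesenchyme markers 7 were higher, and all 8 visceral endoderm markers lower, in shDIS3L2 over d6 to d12. Their part in the differences of the members was not tested.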

How the data were processed

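The labels and the study's methods give polyA RNA, alignment with Subread to GRCm38 and gene-level counting with featureCounts. Raw counts for 50686 genes were deposited by the authors. The authors' CPM values for 16181 protein-coding genes came from edgeR and equal the count plus 0.25, scaled to the total over those genes (largest relative deviation 5e-15). Gene lengths from the count table were used for levels per kilobase and for the length offset. Columns headed shm5 were taken as shDIS3L2 because a table of the study heads its ratios of the lines m5/LacZ.

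Counts of all 14 libraries were fitted in 1 model with edgeR 4.0.16 (R 4.3.3; TMM, filterByExpr, quasi-likelihood test, Benjamini-Hochberg adjustment over 18939 genes). Its terms were day and, separately for d0 to d4 and d6 to d12, line, which left 5 residual degrees of freedom. All 83 genes were tested. DESeq2 1.42.0, other scalings, filters, offsets and each day left out were alternatives. The offset for transcript length and GC content (5 by 5 bins) and the course from d2 were added after seeing the data. The fits were tested on simulated data. Intervals are 95% Clopper-Pearson intervals. They and the floor of 3 reads (0.0960 to 0.474 CPM per library) take in counting error alone, as the reads carry no molecular identifiers and PCR copies are not independent. Ratios between the lines on a day used genes with at least 1 CPM in 1 of the 2 libraries. The genes named singly are, by rule, the highest and lowest per kilobase in each complex, the 5 largest rises and falls past the threshold over d6 to d12 and from d0 to d12, members 2-fold apart on 2 or more days (0 were), isoform sets and complex II. Other genes were chosen after their values were seen. The members and lists were chosen with earlier results of these data known. Exons of 26 members overlap another gene.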

Additional observations from a re-analysis of the deposited data

Results flagged for a closer look

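For 13 members the difference between shDIS3L2 and shLacZ over d6 to d12 differed from that over d0 to d4 by a test of the difference itself (edgeR interaction, Benjamini-Hochberg adjusted p under 0.05). On the log2 scale the change was −1.30 for Cox7a1, −1.06 for Uqcrq, −0.77 for Cox6a1, −0.76 for Ndufb7, −0.75 for Ndufs6 and −0.74 for Uqcr10. It was −0.66 for Uqcr11, −0.64 for Cox5a, −0.61 for Cox6b2, −0.61 for Ndufs5, −0.58 for Cox4i1, −0.54 for Cox7a2 and −0.53 for Cox8a. Of all genes, 5.7% were called downward and 5.13% upward. Of 13 alternatives, Uqcrq kept its call under all and Cox7a1 lost it under 1. The call was lost under 10 for Ndufs5 and Uqcr11, 9 for Cox4i1, and 8 for Ndufb7, Cox6b2 and Cox7a2. For the others it was lost under 3 to 6. Groups hold 1 library each, so no test for a library far from the others of its group was possible.

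Outside the CPM table, the count table lists 13 further genes whose names fit the rule, and 10 of them had more than 3 reads in every library. Cox6c2 had 18804 reads over the 14 libraries, between 319 and 5063 per library, Atp5l-ps1 12670 and Ndufs6b 5726. Cox8c had 14 reads in all and Cox8b, the heart and muscle isoform of subunit 8, had 7.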

How the results depend on the processing

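Values are counts of members called unless stated otherwise. Over d0 to d4, where 1 was called, DESeq2 gave 14 and no low-count filter 11. Library totals, either length offset, the stage fitted alone and leaving out any day gave 0 there (0 to 0). Leaving out a day gave 9 to 20 over d6 to d12, 2 to 11 for the change of the line difference, 7 to 21 from d4 to d6 and 10 to 25 from d6 to d12. For the change, against 13, the gene-length offset gave 4 and library totals 5. From d2 to d4 the gene-length offset gave 9 against 16. From d4 to d6, against 14, library totals gave 8, and no filter and the offset for transcript length and GC content 9 each. From d6 to d12 the CPM-table genes alone gave 24 against 14. Over the course, Ndufs1 turned to −0.11 with the gene-length offset and was 1.65 with that for transcript length and GC content. The median log2 ratio of the lines was 0.40 at d0 with TMM sizes and 0.26 with gene-length bins, which gave 0.15 at d2. The summed d0 level over that of d2 was 2.32, 2.54 and 3.33 in shLacZ with totals over all counted genes, totals without mitochondrially encoded genes and TMM sizes, and 2.24, 2.49 and 3.73 in shDIS3L2. Over all days, members 1.5-fold apart gave 20 higher and 12 lower cases, 3-fold 0 higher, and no minimum level 10 higher and 2 lower, against 3 and 0 at 2-fold. The cause of these changes was not tested. Another 95 such comparisons stayed within 1.5 times or a counting interval, and of those on single genes 292 kept their side of the threshold and 94 lost it. Day is a term of the fit, so the lines were compared within days, and no further replicate block could be added with 1 library per line and day. With 5 residual degrees of freedom, days standing in for replicates and 1 culture per line, small differences between the lines could not be resolved, and members of a few reads, such as Cox4i2, Cox6a2 and Cox7b2, carry wide counting error.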
